A study of Mus musculus with 39 samples.

Results

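The genes that make cholesterol and fatty acids were followed in 2 brain regions, the hippocampus and the basolateral amygdala (BLA), of mice that carry both an amyloid and a tau transgene. The 31 genes were chosen by symbol: 20 of the sterol branch, 7 of the fatty acid branch and 4 called regulators here. These 4 encode or control the sterol regulatory element binding proteins (SREBPs). All 31 were found among the 50559 genes of each table, and all 31 passed the filter on low counts in the hippocampus, where 25791 genes were kept, and in the BLA, where 23168 were kept.

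APP/Tau mice carry APPSw,Ind (line J9, human amyloid precursor protein with the Swedish and Indiana familial mutations, driven by the PDGF-β promoter) and Tau P301S (line PS19, a mutant human tau driven by the prion promoter). Controls carry neither transgene, and every mouse of both genotypes carries the CaMKIIα-Cre driver, active in glutamatergic neurons of the forebrain, and the RiboTag allele, on a C57BL/6 background. All mice were females of 9 months. Trained mice heard a tone that ended with a footshock and were killed 1 h later, and naive mice were not conditioned. The hippocampal groups held 5 naive and 4 trained APP/Tau libraries and 5 naive and 6 trained control libraries, and the BLA groups held 5 naive and 4 trained APP/Tau libraries and 5 naive and 5 trained control libraries. The labels do not say outright that each library is a separate mouse, so p-values measure the spread between these libraries. The RNA is the input of a RiboTag preparation, that is tissue RNA before ribosomes are pulled down, so all cell types contribute to a level and fewer cells of a type cannot be told apart from less RNA per cell. The BLA came from 4 punches per mouse.

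The mevalonate pathway turns acetyl-CoA into isoprenoids, squalene and, after the closure of lanosterol, cholesterol. SREBP-2 (Srebf2) drives its genes and SREBP-1 (Srebf1) those of fatty acid synthesis. Scap carries both proteins to the Golgi for cleavage when sterols are scarce, and Insig1 holds them in the endoplasmic reticulum when sterols are plentiful. The adult brain makes its own cholesterol, because lipoproteins of the blood do not cross the blood-brain barrier, and astrocytes and oligodendrocytes are known to be major producers.

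Levels are TMM-scaled CPM (counts of a gene relative to the total of its library), changes are log2 fold changes ± standard error, and a gene is called where the Benjamini-Hochberg adjusted p of edgeR's quasi-likelihood F test over all genes kept is under 0.05. Library totals were 92.1 to 128 M counts in the hippocampus and 50.3 to 74.3 M in the BLA. Prnp, the prion protein gene, served as a check of the labels: it stood at 1588 to 2231 CPM in the 9 hippocampal APP/Tau libraries against 707 to 964 CPM in the 11 controls, and at 1070 to 1683 CPM in the 9 BLA APP/Tau libraries against 743 to 1054 CPM in the 10 controls, with no overlap in either tissue. App and Mapt, the mouse genes for the proteins of the transgenes, set them apart less well. App stood at 2251 to 2695 CPM against 1685 to 2008 CPM in the hippocampus, but at 1719 to 2288 CPM in BLA APP/Tau libraries against 1692 to 2406 CPM in BLA controls, with means of 1937 and 2140 CPM. Mapt stood at 594 to 660.5 CPM against 525 to 604 CPM in the hippocampus and overlapped there, as it did in the BLA, with BLA means of 614 and 607 CPM. So Prnp alone set the genotypes apart in both tissues. In the BLA, 4 libraries (APP/Tau trained replicates 1 and 4, APP/Tau naive replicate 2 and control trained replicate 2) had less than 20 CPM of Rspo2, a marker of BLA projection neurons, and summed markers of striatum and central amygdala of 2173 to 4092 CPM, against 392 to 2059 CPM in the other 15. In the hippocampus, control naive replicate 1 and control trained replicate 1 held over 10000 CPM of Rn18s-rs5, a ribosomal RNA gene. Without the libraries low in Rspo2 edgeR called 0 members in every BLA comparison and for genotype by tissue, and without those rich in Rn18s-rs5 it called 0 in every hippocampal comparison other than genotype averaged over training, and 0 for genotype by tissue. The other counts without them stand beside their results.

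Per kilobase of exon, Scd2, the main stearoyl-CoA desaturase of brain, had the highest level of the 31 genes in controls, at 224 ± 15.98 CPM per kilobase (SD, n = 11) in the hippocampus and 236 ± 13.4 (n = 10) in the BLA. Hmgcs1, the synthase that makes HMG-CoA, came next at 64.9 ± 4.32 in the hippocampus and 80.7 ± 13.3 in the BLA. The fatty acid desaturases Fads1 and Fads2 followed, at 58.5 ± 2.12 and 47.9 ± 2.66 CPM per kilobase in the hippocampus. Idi1, the isomerase that makes dimethylallyl diphosphate, was lowest at 3.50 ± 0.215 in the hippocampus and 2.84 ± 0.563 in the BLA. Sterol members varied among hippocampal controls with a median coefficient of variation of 7.05% and among the APP/Tau mice with 14.1%. The fatty acid members varied with 7.12% and 7.39%, and all genes kept with 15% and 20.4%. In the BLA the sterol members varied with 14.8% among controls, and with 16.9% among APP/Tau mice. There the fatty acid members varied with 8.27% and 11.6%, and all genes kept with 18.4% and 19.1%.

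Of the 31 genes, 24 had a promoter in RefSeq's table for build GRCm38.p6, and Fdps, Fdft1, Sqle, Stard4, Scd1, Scd2 and Fads1 did not. The 250 bases before each start site were searched on both strands for 3 motifs, with no mismatch allowed. A sterol regulatory element core, spelled TCACNCCAC, was found in 1 of the 24, Hmgcs1, and in 1.22% of all 27025 genes with a promoter. A CCAAT box, the motif of NF-Y, which binds beside SREBPs at sterol genes, was found in 15 of 16 sterol members, 1 of 4 fatty acid members and 3 of 4 regulators, against 37.5% of all genes. The E-box CACGTG was found in 5 of the 24 and in 6.86% of all genes. Matches to different motifs shared no letters in the promoters printed here. A match is only a match of letters, and the factors were not measured.

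The 150 bases before the start site are printed below, 5′ to 3′ on the gene's strand. They are given for 3 members that fell in the hippocampus and hold a CCAAT box, and for Hmgcs1, the only one with the sterol element. Srebf1, which rose there and also holds a CCAAT box, is not printed. This choice was made after the matches and values were seen. Capitals mark the CCAAT box or its reverse complement and, in Hmgcs1, also the sterol element.
Hmgcs1: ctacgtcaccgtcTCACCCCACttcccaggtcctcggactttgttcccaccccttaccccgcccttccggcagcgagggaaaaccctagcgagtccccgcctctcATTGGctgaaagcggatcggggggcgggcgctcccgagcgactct
Idi1: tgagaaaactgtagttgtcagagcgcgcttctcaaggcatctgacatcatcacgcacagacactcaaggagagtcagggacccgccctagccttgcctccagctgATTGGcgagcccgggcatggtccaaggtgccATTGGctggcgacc
Cyp51: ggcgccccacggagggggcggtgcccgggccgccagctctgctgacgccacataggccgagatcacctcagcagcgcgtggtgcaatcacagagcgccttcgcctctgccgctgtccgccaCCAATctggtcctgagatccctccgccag
Fasn: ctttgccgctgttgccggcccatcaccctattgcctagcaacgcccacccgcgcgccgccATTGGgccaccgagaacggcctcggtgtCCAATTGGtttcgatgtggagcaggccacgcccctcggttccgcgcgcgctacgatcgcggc
The Hmgcs1 stretch lies at chr13:119690201-119690350 on the plus strand, that of Idi1 at chr13:8885456-8885605 on the plus strand, that of Cyp51 at chr5:4104698-4104847 on the minus strand and that of Fasn at chr11:120824548-120824697 on the minus strand, all in GRCm38.p6, while the counts were made on mm39. The sterol element of Hmgcs1 spans the bases 137 to 129 before the start site. All 4 stretches hold a CCAAT box within 100 bases of the start: at 45 to 41 in Hmgcs1, at 45 to 41 and 14 to 10 in Idi1, and at 29 to 25 in Cyp51. Fasn holds 3, of which the pair at 62 to 58 and 59 to 55 overlap on opposite strands.

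The first comparison asked how the genotype moved these genes in the hippocampus, averaged over naive and trained mice. Of the 31 members 5 were called, 1 higher and 4 lower in APP/Tau mice. Over all genes kept 11% were called, 7.2% higher and 3.79% lower. The members that fell were Cyp51 and Idi1 of the sterol branch and Elovl6 and Fasn of the fatty acid branch, and the member that rose was Srebf1. Each of the 4 falls was small, between 9.32% and 17.2%, while Srebf1 rose by 45.8%.

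**Figure D1:**
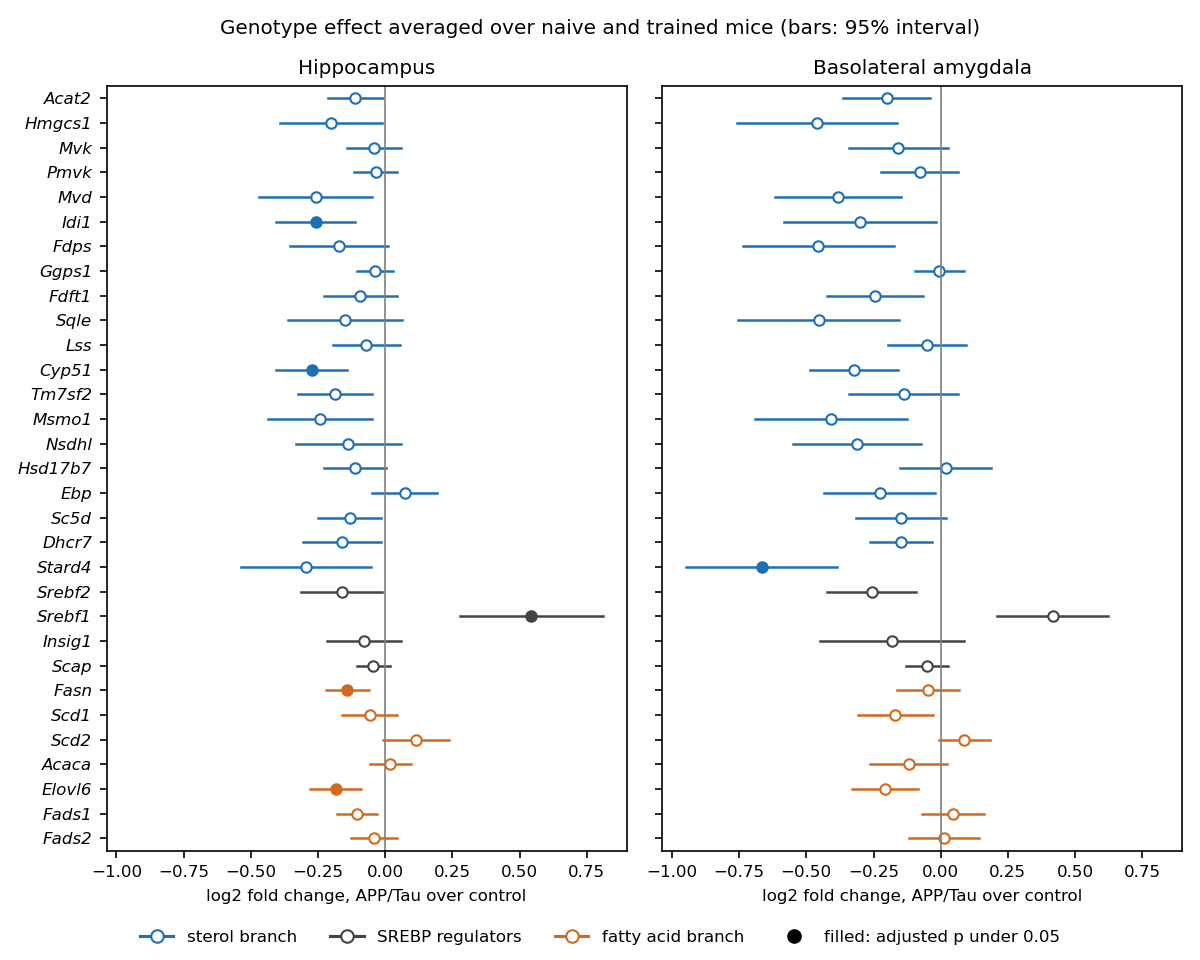
Log2 fold change of APP/Tau over control, averaged over naive and trained mice, for the 31 genes in the hippocampus (left) and the BLA (right). Points are estimates, bars are 95% intervals, and filled points passed the threshold: 5 in the hippocampus and 1 in the BLA, with 19 of 20 sterol members below 0 in each tissue.

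Sterol members of the hippocampus lay below 0 in 19 of 20 cases, with a median of -0.14 and a range from -0.29 to 0.07. Over all genes kept, 50.3% lay below 0 and the median was -0.00126. Of the 20 sterol members 2 were called. At an unadjusted p under 0.05, 14 of the 31 members passed, 13 lower and 1 higher, beside 7334 of all genes (28.4%), 3396 lower and 3938 higher.

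Cyp51, the lanosterol demethylase, fell by 0.27 ± 0.07 on the log2 scale (edgeR adjusted p = 0.0159). It stood at 50.0, 53.4, 57.4, 63.7 and 61.1 CPM in naive controls, and trained controls ranged from 53.1 over a median of 59.9 to 64.1 CPM. In naive APP/Tau mice it stood at 51.1, 45.6, 46.2, 48.2 and 42.1 CPM, and in trained ones at 39.7, 59.9, 44.0 and 54.6 CPM. Of the 9 APP/Tau libraries 6 lay below the lowest control, and trained replicates 2 and 4 and naive replicate 1 lay among the controls.

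Idi1 fell by 0.26 ± 0.08 (edgeR adjusted p = 0.0337). Its levels were 9.91, 10.5, 10.5, 11.3 and 10.7 CPM in naive controls and 9.73 to 12.0 CPM (median 10.4) in trained ones. Naive APP/Tau mice gave 9.09, 7.86, 10.1, 10.6 and 7.23 CPM and trained ones 7.51, 10.6, 7.82 and 9.01 CPM. Again 6 of 9 APP/Tau libraries lay below every control, and the other 3 lay among them.

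The early steps of the sterol branch gave no call apart from Idi1. Acat2, the cytosolic thiolase that starts it, gave -0.11 ± 0.05 (edgeR adjusted p = 0.166), and Hmgcs1 gave -0.20 ± 0.10 (adjusted p = 0.177). Mvk and Pmvk, the kinases of mevalonate and phosphomevalonate, gave -0.04 ± 0.05 and -0.03 ± 0.04, and Mvd, the decarboxylase that follows them, gave -0.26 ± 0.11 (adjusted p = 0.120). For the prenyl transferases the values were -0.17 ± 0.09 for Fdps, which makes farnesyl diphosphate, and -0.04 ± 0.03 for Ggps1, which makes geranylgeranyl diphosphate and lies off the route to cholesterol.

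From squalene on, Fdft1 (squalene synthase) gave -0.09 ± 0.07, Sqle (squalene epoxidase) -0.15 ± 0.11 and Lss (lanosterol synthase) -0.07 ± 0.06, none of them called. Among the enzymes that trim lanosterol to cholesterol, Msmo1, the C4-methyl oxidase, gave -0.24 ± 0.10 (edgeR adjusted p = 0.115) and Tm7sf2, a sterol C14 reductase, -0.19 ± 0.07 (adjusted p = 0.0881). Nsdhl and Hsd17b7, which complete the removal of the C4 methyl groups, gave -0.14 ± 0.10 and -0.11 ± 0.06. Ebp, the sterol isomerase, was the sterol member above 0, at 0.07 ± 0.06, and Sc5d and Dhcr7, which form and reduce double bonds late in the route, gave -0.13 ± 0.06 and -0.16 ± 0.07. No value of this paragraph passed the threshold.

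Stard4, which carries cholesterol between membranes, had the lowest estimate of the sterol branch and was not called, at -0.29 ± 0.12 (edgeR adjusted p = 0.121). Naive controls gave 31.6, 33.6, 29.2, 33.0 and 30.6 CPM and trained controls 24.3 to 28.3 CPM (median 26.7). Naive APP/Tau mice gave 27.2, 26.4, 32.8, 27.9 and 14.5 CPM and trained ones 16.4, 29.2, 15.97 and 25.2 CPM. Naive replicate 5 and trained replicates 1 and 3 lay far below every control, and the other 6 APP/Tau libraries lay among the controls.

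Srebf1 rose in the hippocampus by 0.54 ± 0.14 (edgeR adjusted p = 0.0178). Naive controls gave 57.3, 50.3, 51.4, 50.6 and 58.4 CPM and trained controls 48.2 to 53.0 CPM (median 51.5). Naive APP/Tau mice gave 67.7, 59.5, 70.1, 56.7 and 118 CPM and trained ones 103, 51.1, 101 and 57.5 CPM. The highest values belonged to naive replicate 5 and trained replicates 1 and 3, the libraries with the lowest Stard4, and 6 of the 9 lay above every control. The other regulators were not called: Srebf2 gave -0.16 ± 0.08 (adjusted p = 0.170), Insig1 -0.08 ± 0.07 and Scap -0.04 ± 0.03. The estimates for the transcripts of the SREBPs thus had opposite signs, but only that of Srebf1 was called.

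**Figure D2:**
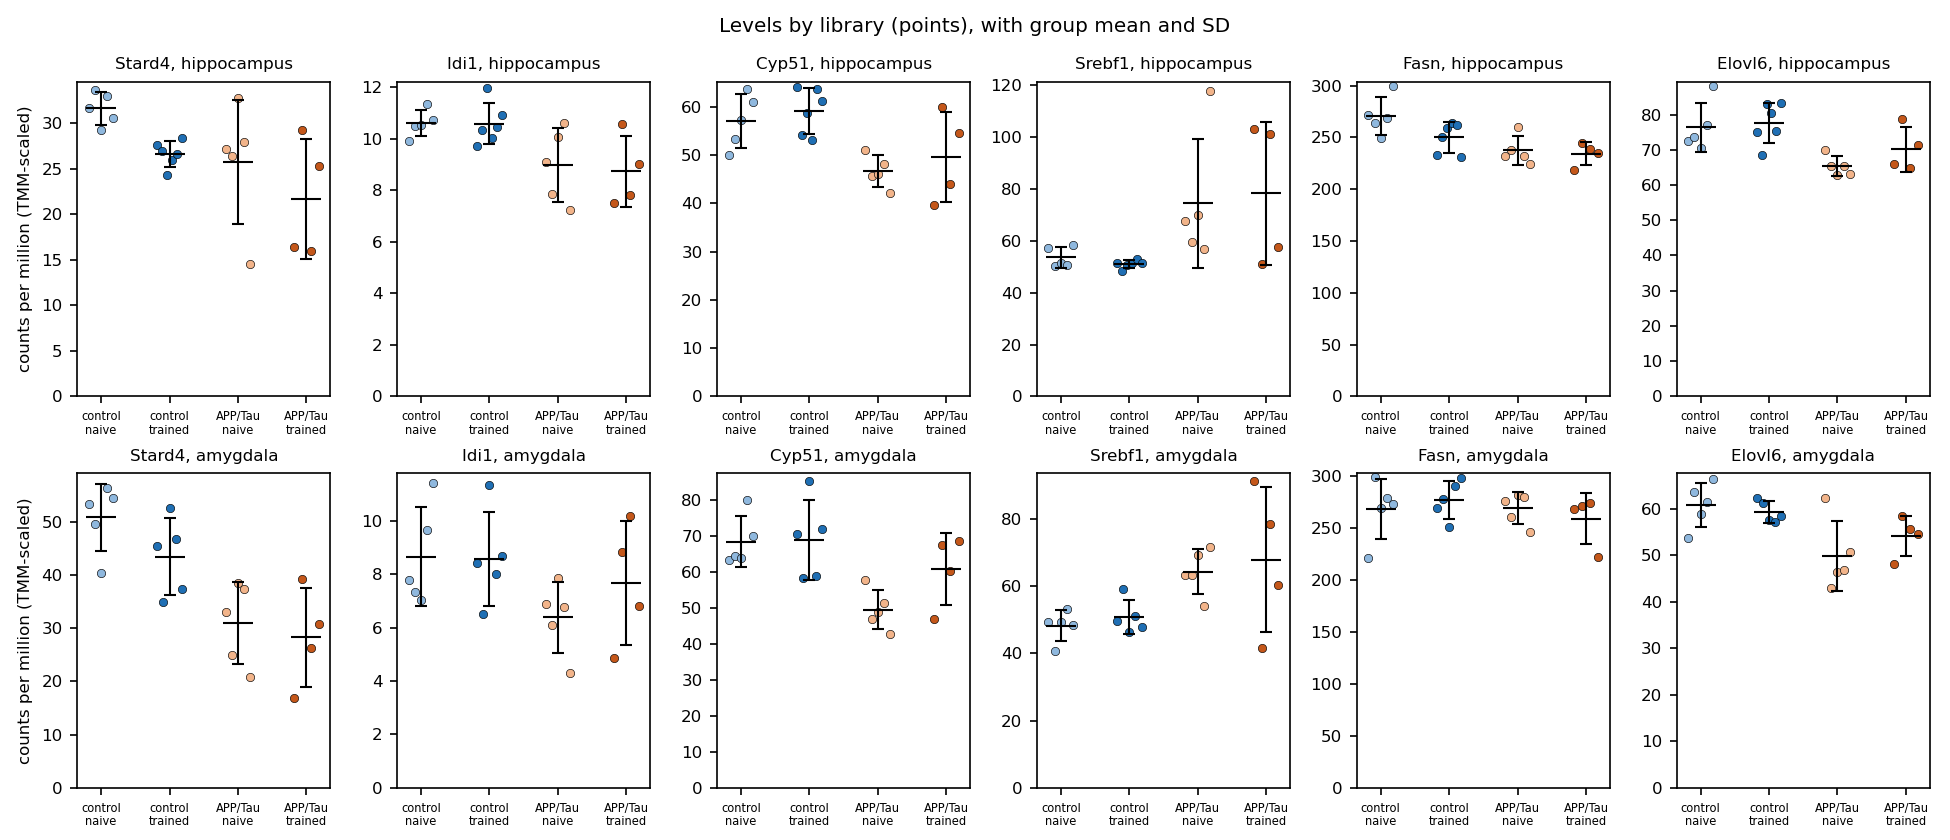
Levels in CPM (axes from 0) of the 6 members called in either tissue, in the hippocampus (top row) and the BLA (bottom row), by genotype and training. Points are libraries, long horizontal marks are group means and bars are SD. The groups overlap for all 6 genes, and hippocampal Srebf1 reaches 101 to 118 CPM in 3 APP/Tau libraries against at most 58.4 CPM in controls.

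In the fatty acid branch of the hippocampus 5 of 7 members lay below 0, with a median of -0.06, and 2 were called, both lower. Elovl6, which lengthens palmitate, fell by 0.18 ± 0.05 (edgeR adjusted p = 0.0211). It stood at 72.4, 73.6, 70.6, 77.1 and 88.1 CPM in naive controls, at 68.4 to 83.3 CPM (median 77.8) in trained controls, at 69.9, 65.4, 62.9, 65.5 and 63.2 CPM in naive APP/Tau mice and at 65.9, 78.8, 64.8 and 71.3 CPM in trained ones. Of the 9 APP/Tau libraries 6 lay below the lowest control.

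Fasn, the fatty acid synthase, fell by 0.14 ± 0.04 (edgeR adjusted p = 0.0318). Naive controls gave 271, 264, 249, 269 and 299.8 CPM and trained controls 231 to 264 CPM (median 255). Naive APP/Tau mice gave 232, 238, 260.4, 232 and 224 CPM and trained ones 219, 245, 239 and 235 CPM. Only 2 APP/Tau libraries lay below the lowest control, while 6 of the 11 controls lay above the highest APP/Tau library.

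The other 5 fatty acid members were not called. Acaca, the acetyl-CoA carboxylase that commits carbon to the branch, gave 0.02 ± 0.04, and the desaturases gave -0.06 ± 0.05 for Scd1, 0.11 ± 0.06 for Scd2, -0.11 ± 0.04 for Fads1 (edgeR adjusted p = 0.0732) and -0.04 ± 0.04 for Fads2. Scd2 stood at 1107 to 1362 CPM in controls, and 3 APP/Tau libraries, naive replicate 5 and trained replicates 1 and 3, lay above that range at 1601, 1462 and 1441 CPM.

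The mean log2 CPM of the 20 sterol members minus that of the 7 fatty acid members set the branches against each other within each library. In the hippocampus it ranged from -2.62 to -2.44 in the 11 controls (median -2.52) and from -2.89 to -2.42 in the 9 APP/Tau libraries (median -2.56). The value of naive replicate 5 was -2.89, that of trained replicate 1 was -2.87 and that of trained replicate 3 was -2.80, all below the controls, and the other 6 lay between -2.57 and -2.42, among the controls apart from naive replicate 4, which was the highest. The mean of the fatty acid members was 7.40 ± 0.0511 (SD, n = 9) in APP/Tau and 7.45 ± 0.0654 (n = 11) in control libraries, while the mean of the sterol members was 4.78 ± 0.183 and 4.93 ± 0.0527.

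Counted against all 11 controls, 14 of the 20 sterol members lay below every control in naive replicate 5, 17 in trained replicate 1 and 15 in trained replicate 3. In the same libraries 24.0%, 25.3% and 18.3% of all genes kept lay below every control. In the other 6 APP/Tau libraries 0 to 6 sterol members and 6.75% to 13.7% of all genes did so. Naive replicate 3 went the other way, with 6 of 20 sterol members above every control, beside 13.4% of all genes. For the fatty acid members the counts were 3, 3 and 2 of 7 in these 3 libraries and 0 to 4 in the others.

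**Figure D3:**
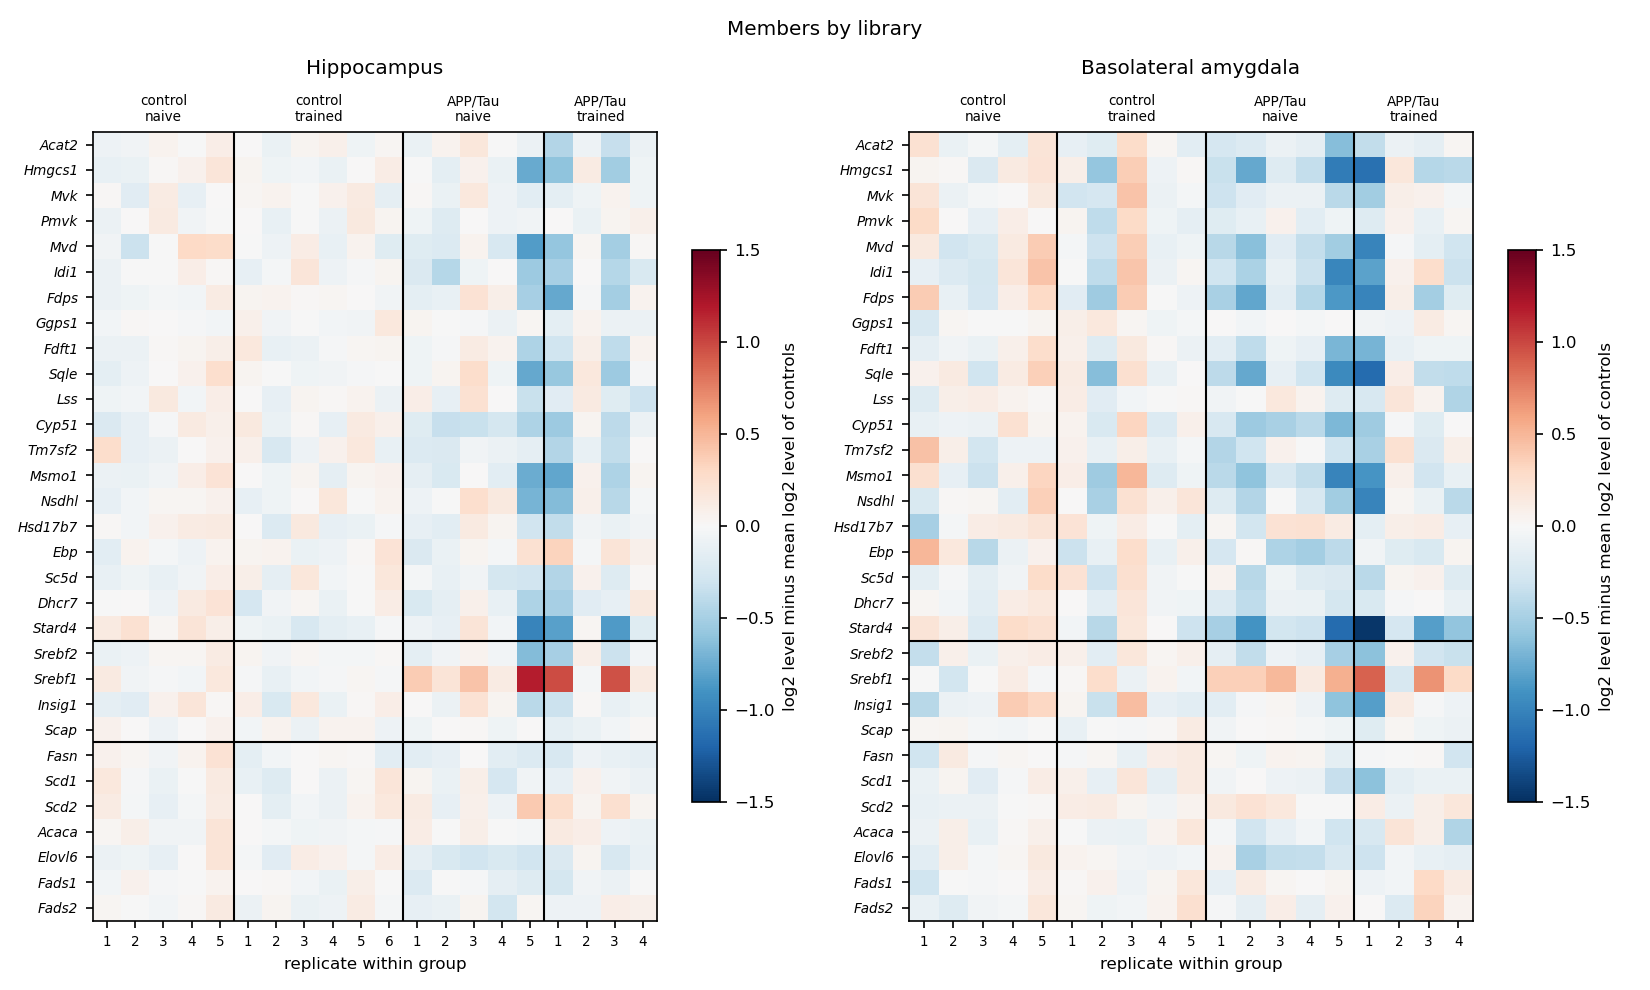
Log2 level of each of the 31 genes in each library minus the mean log2 level of the controls of the same tissue (blue below, red above). Columns are libraries by group and replicate, and horizontal lines part the sterol branch, the regulators and the fatty acid branch. In the hippocampus the blue sterol columns are APP/Tau naive replicate 5 and trained replicates 1 and 3, where Srebf1 is red.

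Markers of cell types were tested for genotype in the same fit. In the hippocampus 7 of 8 microglia markers, all 4 markers of plaque-associated microglia, 6 of 8 astrocyte markers and 6 of 8 oligodendrocyte markers were called higher in APP/Tau mice, and 0 of 8 neuron markers were called. Also called were 2 of 5 oligodendrocyte precursor and 2 of 5 endothelial markers, all higher, 1 of 9 striatal and central amygdala markers, higher, 1 of 4 markers of hippocampal neurons, lower, and 2 of 3 markers of BLA neurons, lower. The summed markers of plaque-associated microglia stood at 5.76 to 12.3 CPM in controls and at 14.8 to 155 CPM in APP/Tau libraries. In APP/Tau naive replicate 5 and trained replicates 1 and 3 they stood at 139.6, 155 and 149 CPM, the 3 highest values.

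In the same libraries the summed oligodendrocyte markers were 9980, 9103 and 8071 CPM, against 4085 to 6587 CPM in controls, and the summed neuron markers were 6034, 5873 and 7221 CPM, against 8895 to 10404 CPM. Summed astrocyte markers were 4062 to 4597 CPM in controls and 4375 to 10218 CPM in APP/Tau libraries. With the mean log2 level of the oligodendrocyte markers as a covariate, edgeR called 0 of the 31 members and 33 of all genes. The estimates were then -0.17 for Cyp51 (adjusted p = 0.556), -0.15 for Idi1, -0.18 for Elovl6, -0.12 for Fasn and 0.14 for Srebf1, and the median of the sterol members was -0.03. Of the markers in that covariate 6 of 8 were themselves called higher in APP/Tau mice. Their sums were highest in the libraries where the plaque-associated microglia markers were highest. The fit therefore cannot single out a cell type, and the part of any cell type in these results was not tested.

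**Figure D4:**
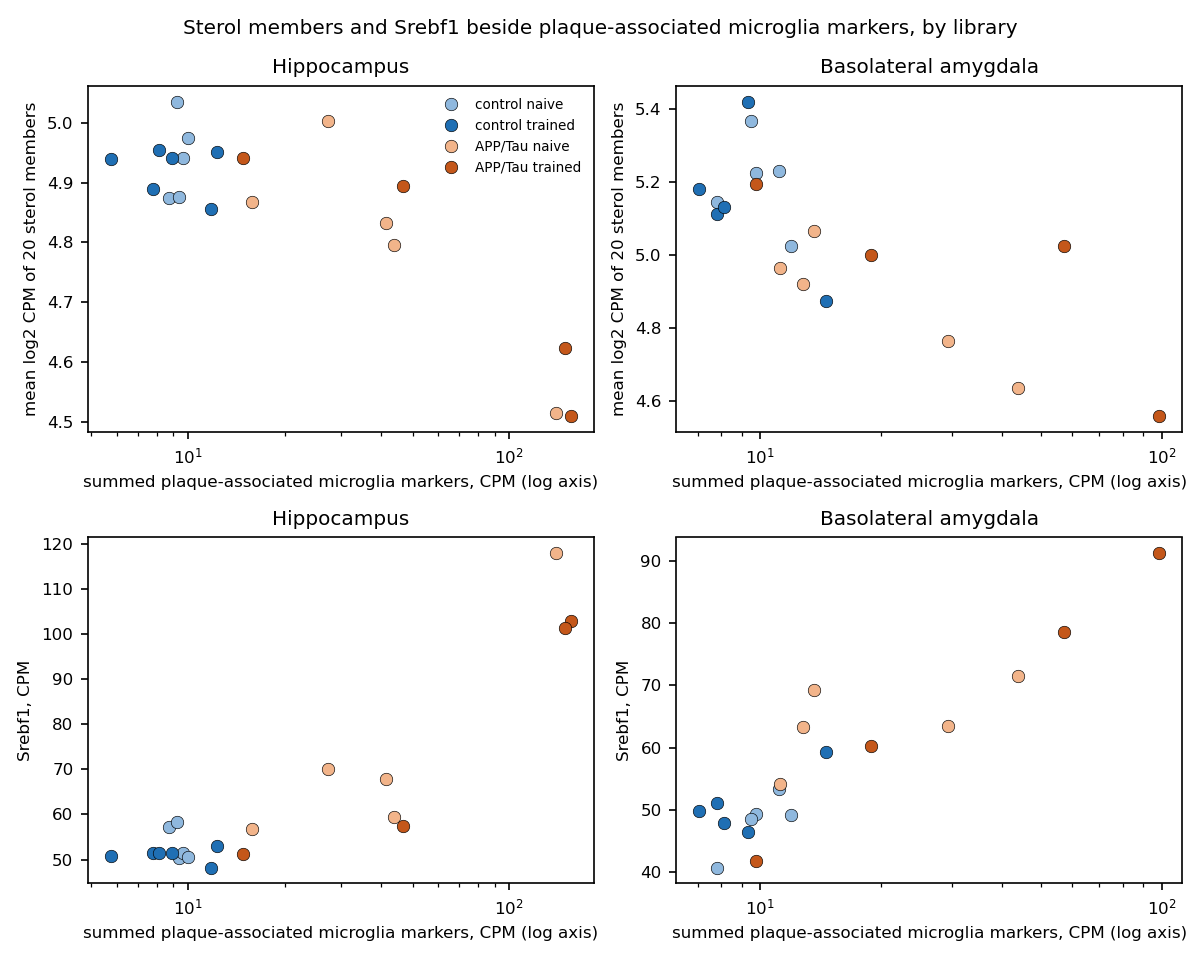
Mean log2 CPM of the 20 sterol members (top) and CPM of Srebf1 (bottom) against the summed CPM of 4 markers of plaque-associated microglia (log axis), hippocampus left and BLA right, with a point for each library coloured by genotype and training. In the hippocampus the 3 APP/Tau libraries with 139.6 to 155 CPM of the markers have sterol means of 4.51 to 4.62, below the controls at 4.86 to 5.04, and Srebf1 at 101 to 118 CPM.

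Leaving out single libraries moved the hippocampal count between 1 and 8 members. It was 1 (Cyp51) without APP/Tau trained replicate 1 or 3, where 4.2% and 4.33% of all genes were called. It was 3 without APP/Tau naive replicate 5 or control trained replicate 3, beside 6.83% and 8.77% of all genes, and 8 without APP/Tau trained replicate 2 or 4, beside 16.8% and 14.5%. Of 20 such fits Cyp51 was called in 20, Elovl6 and Srebf1 in 18 each, Idi1 in 14 and Fasn in 13. Without the libraries rich in Rn18s-rs5 the count was 5, beside 6.87% of all genes.

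Within naive mice of the hippocampus edgeR called 0 members, where 0.0892% of all genes were called. At an unadjusted p under 0.05 there were 8 members, beside 3880 of all genes (15%). DESeq2 called 2 members, both lower, and 2.88% of all genes, and limma-voom called 0 members. The sterol median was -0.10, with 17 of 20 below 0, and the fatty acid median was -0.11, with 6 of 7 below 0. Fasn gave -0.19 ± 0.06 (edgeR adjusted p = 0.132) and Cyp51 -0.29 ± 0.09 (adjusted p = 0.161).

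Within trained mice of the hippocampus edgeR again called 0 members, where 2.53% of all genes were called. At an unadjusted p under 0.05 there were 6 members, beside 5222 of all genes (20.2%). DESeq2 called 1 member higher and 1 lower and 6.14% of all genes, and limma-voom called 0 members. Here the sterol median was -0.20, with 18 of 20 below 0, and the fatty acid median was -0.02, with 4 of 7 below 0. Srebf1 gave 0.61 ± 0.19 (adjusted p = 0.0946), beside 0.47 ± 0.19 in naive mice (adjusted p = 0.251). Without APP/Tau trained replicate 2 the count in trained mice was 4, without trained replicate 4 it was 2 and without naive replicate 5 it was 1, beside 8.45%, 5.44% and 6.69% of all genes.

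Training itself moved no member past the threshold in the hippocampus. In controls edgeR called 0 members and 0% of all genes, with 1 member at an unadjusted p under 0.05 (Fasn, -0.11 ± 0.05), and in APP/Tau mice it called 0 members and 0% of all genes, with 1 such member (Acat2, -0.24 ± 0.08). The genotype by training term, the test of whether the genotype effect differed between naive and trained mice, also gave 0 members and 0% of all genes, with 1 member at an unadjusted p under 0.05 (Acat2, -0.23 ± 0.10). DESeq2 and limma-voom called 0 members in all 3 comparisons. The medians of that term were -0.04 for the sterol branch and 0.08 for the fatty acid branch, so the effect of the genotype on neither branch was shown to differ with training.

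In the BLA 1 of the 31 members was called for genotype, averaged over training: Stard4, which fell. Over all genes 1.2% were called, 1.01% higher and 0.194% lower. At an unadjusted p under 0.05 there were 17 members, 16 lower and 1 higher, beside 4337 of all genes (18.7%), 2017 lower and 2320 higher. Sterol members lay below 0 in 19 of 20 cases, with a median of -0.24, while the fatty acid members lay below 0 in 4 of 7, with a median of -0.05. Over all genes 48.4% lay below 0, with a median of 0.00676.

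Stard4 fell in the BLA by 0.67 ± 0.14 on the log2 scale, a level 37.0% lower (edgeR adjusted p = 0.0366). Naive controls gave 53.3, 49.6, 40.3, 56.3 and 54.5 CPM and trained controls 45.4, 34.9, 52.6, 46.9 and 37.4 CPM. Naive APP/Tau mice gave 33.1, 25.0, 38.4, 37.5 and 20.8 CPM and trained ones 16.98, 39.2, 26.2 and 30.9 CPM. Of the 9 APP/Tau libraries 6 lay below every control, and 8 of the 10 controls lay above every APP/Tau library. The lowest control was trained replicate 2, one of the libraries low in Rspo2.

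The call of Stard4 was lost without the 4 libraries low in Rspo2 (-0.56, edgeR adjusted p = 0.152), with the oligodendrocyte covariate (-0.50, adjusted p = 0.437), with the covariate of striatal and central amygdala markers (-0.56, adjusted p = 0.162), without the filter on low counts (adjusted p = 0.0603) and with the replicate number as a block (-0.71, adjusted p = 0.0732). It was kept in 7 of 19 fits that left out 1 library, in which the change ranged from -0.77 to -0.57. In the BLA all 4 markers of plaque-associated microglia, 4 of 8 microglia markers, 2 of 8 astrocyte and 2 of 8 oligodendrocyte markers were called higher, and 0 of 9 striatal and central amygdala markers were called, with a median of 0.66. Summed oligodendrocyte markers were 2024 to 4204 CPM in controls and 2623 to 5712 CPM in APP/Tau libraries. The medians of the oligodendrocyte and of the striatal and central amygdala markers were 0.60 and 0.66 for genotype. The covariate fits above therefore cannot tell marker and genotype apart, and the part of these markers in the result was not tested.

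The other sterol members of the BLA were not called. Cyp51 gave -0.32 ± 0.08 (edgeR adjusted p = 0.0574), with 42.9 to 68.6 CPM (median 51.4) in APP/Tau libraries and 58.2 to 85.3 CPM (median 67.3) in controls. Hmgcs1 gave -0.46 ± 0.15 (adjusted p = 0.121), with 128 to 312 CPM (median 210.1) against 185 to 358 CPM (median 283). In both genes the groups overlapped.

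Fdps gave -0.45 ± 0.14, Sqle -0.45 ± 0.15, Msmo1 -0.41 ± 0.14, Mvd -0.38 ± 0.12 and Idi1 -0.30 ± 0.14, none of them past the threshold. Hsd17b7 was the sterol member above 0, at 0.02 ± 0.09. Of the regulators Srebf1 gave 0.42 ± 0.11 (edgeR adjusted p = 0.0542), with 41.7 to 91.2 CPM (median 63.5) in APP/Tau libraries and 40.7 to 59.2 CPM (median 49.3) in controls, and 7 of 9 APP/Tau libraries lay above every control. DESeq2 called Srebf1 (adjusted p = 0.01). Srebf2 gave -0.26 ± 0.08 (edgeR adjusted p = 0.113), Insig1 -0.18 ± 0.14 and Scap -0.05 ± 0.04.

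In the fatty acid branch of the BLA Elovl6 gave -0.21 ± 0.06 (edgeR adjusted p = 0.0908), with 42.9 to 62.4 CPM in APP/Tau libraries and 53.8 to 66.5 CPM in controls. Fasn gave -0.05 ± 0.06 (adjusted p = 0.711), Acaca -0.12 ± 0.07 and Scd1 -0.17 ± 0.07. Scd2, Fads1 and Fads2 gave 0.09 ± 0.05, 0.05 ± 0.06 and 0.01 ± 0.07. No fatty acid member was called.

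The sterol mean minus the fatty acid mean ranged from -2.56 to -1.99 in BLA controls (median -2.30) and from -2.71 to -2.19 in APP/Tau libraries (median -2.50). The lowest values belonged to trained replicate 1, at -2.71, and naive replicate 5, at -2.67. Naive replicate 2, at -2.58, also lay below the lowest control, and the other 6 lay within the range of the controls. Below every control lay 16 of 20 sterol members in trained replicate 1, 15 in naive replicate 5, 13 in naive replicate 2 and 7 in naive replicate 1, and 0 to 3 in the other 5. Trained replicate 1 and naive replicate 2 are among the libraries low in Rspo2. So is control trained replicate 2, the lowest control at -2.56. Trained replicate 4, also low in Rspo2, had 2 of 20 below every control. The share of all genes below every control ran from 7% to 15.6% over the 9 APP/Tau libraries. Trained replicate 1 and naive replicate 5 carry the library numbers of the hippocampal libraries with the lowest sterol means, while trained replicate 3, which shares a number with the other low hippocampal library, had 1 of 20 below every control. The labels do not say that a number marks a mouse.

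The DESeq2 test called 8 members in the BLA, 7 lower and 1 higher, where it called 5.14% of all genes. Without APP/Tau trained replicate 2 edgeR called 9 members and 9.02% of all genes, and without control trained replicate 2 it called 6 members and 5.32%. No member was free of overlap between genotypes in either tissue, while 0.473% of all genes were in the hippocampus and 0.0647% in the BLA.

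Within naive mice of the BLA edgeR called 0 members, where 0.0388% of all genes were called. There were 15 members at an unadjusted p under 0.05, beside 2996 of all genes (12.9%). DESeq2 called 2 members, both lower, and 0.475% of all genes, and limma-voom called 0 members. The sterol median was -0.29, with 18 of 20 below 0, and the fatty acid median was 0.00352. In trained mice edgeR also called 0 members, where 0.0475% of all genes were called, with 4 members at an unadjusted p under 0.05, beside 2378 of all genes (10.3%), and 0 by DESeq2 and limma-voom. There all 20 sterol members had estimates below 0, with a median of -0.15. Without APP/Tau trained replicate 2 the count in trained mice was 3, beside 2.97% of all genes.

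Training called 0 members in the BLA in controls (0% of all genes; 0 members at an unadjusted p under 0.05) and 0 in APP/Tau mice (0%; 1 such member, Cyp51, 0.30 ± 0.12, edgeR adjusted p = 0.867). The genotype by training term gave 0 members and 0% of all genes, with 0 members at an unadjusted p under 0.05. DESeq2 and limma-voom called 0 members in all 3. The median of the term was 0.17 for the sterol branch and -0.01 for the fatty acid branch, and 16 of 20 sterol members lay above 0.

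The genotype by tissue term tested whether the genotype effect differed between BLA and hippocampus, in a fit of all 39 libraries that treated them as separate samples. The 19 library numbers that occur in both tissues carry the same genotype and training in each, and with the number as a block edgeR also called 0 members. edgeR called 0 members, where 0.0262% of all genes were called, and DESeq2 and limma-voom also called 0. At an unadjusted p under 0.05 there were 2 members, beside 2204 of all genes (8.25%): Ebp at -0.31 ± 0.12 (adjusted p = 0.480) and Fads1 at 0.14 ± 0.07 (adjusted p = 0.605). Stard4 gave -0.38 ± 0.19 (adjusted p = 0.624, 95% interval -0.76 to 0.00). A different effect in the BLA was therefore not shown for Stard4 or any other member.

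Among naive controls the level of each member was compared between the BLA and the hippocampus, whose RNA input also differed. The branches were not tested against each other. Of the 31 members 15 were called, 13 higher and 2 lower in the BLA, against 41.1% of all genes called, 20.4% higher and 20.7% lower. Of the sterol members 11 were higher and 1 was lower, with a median of 0.33. Of the fatty acid members 0 were higher and 1 was lower, with a median of 0.01. The median over all genes was -0.03.

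**Figure D5:**
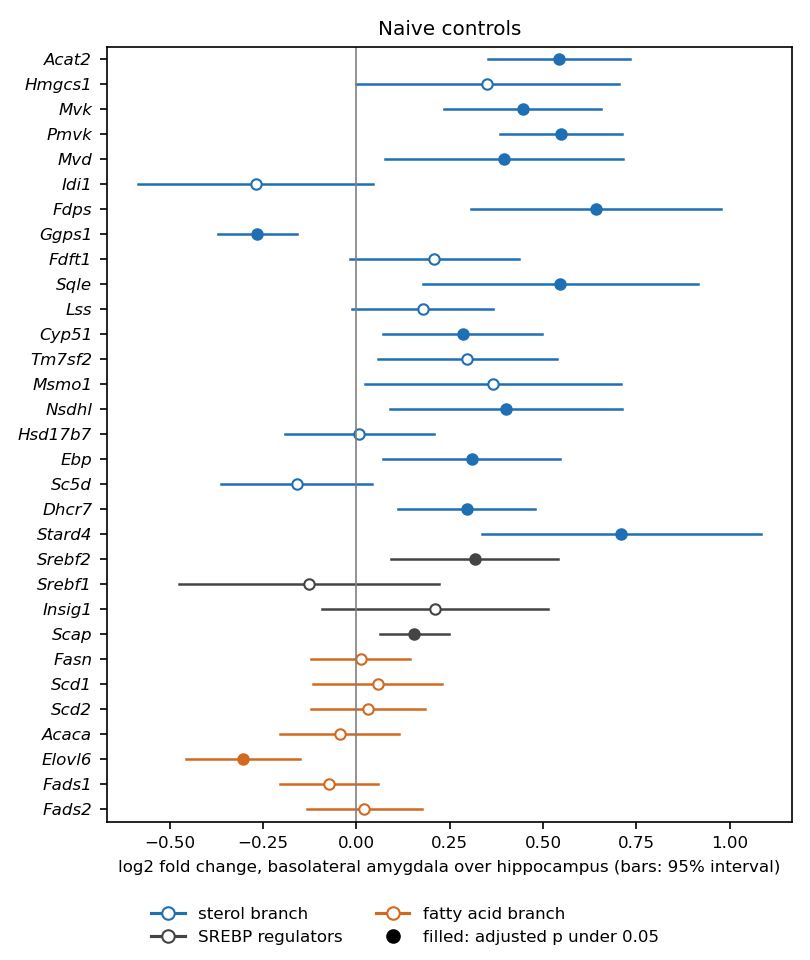
Log2 difference of BLA over hippocampus in naive controls for the 31 genes, with 95% intervals; filled points passed the threshold. The sterol members lie mostly to the right of 0 (median 0.33) and the fatty acid members around it (median 0.01).

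Stard4 differed most among the sterol members, at 0.71 ± 0.19 (edgeR adjusted p = 0.00296). Its levels were 53.3, 49.6, 40.3, 56.3 and 54.5 CPM in the BLA and 31.6, 33.6, 29.2, 33.0 and 30.6 CPM in the hippocampus. These CPM were scaled within each tissue, while the changes come from the fit over both tissues. Fdps gave 0.64 ± 0.17, with 62.9, 44.9, 40.7, 51.9 and 59.7 CPM against 32.2, 32.7, 33.7, 33.3 and 37.5 CPM.

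Pmvk gave 0.55 ± 0.08, Sqle 0.55 ± 0.19, Acat2 0.54 ± 0.10 and Mvk 0.45 ± 0.11. Nsdhl, Mvd, Ebp, Dhcr7 and Cyp51 were higher by 0.28 to 0.40. Srebf2 was higher in the BLA by 0.32 ± 0.11 (edgeR adjusted p = 0.0239) and Scap by 0.16 ± 0.05 (adjusted p = 0.0079).

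The lower members were Ggps1, at -0.27 ± 0.05 (edgeR adjusted p = 0.000116), and Elovl6, at -0.30 ± 0.08 (adjusted p = 0.00172). Elovl6 stood at 53.8, 63.5, 58.9, 61.4 and 66.5 CPM in the BLA and at 72.4, 73.6, 70.6, 77.1 and 88.1 CPM in the hippocampus. In the BLA all 8 oligodendrocyte markers were lower (median -1.06), as were all 4 of the choroid plexus, all 4 of hippocampal neurons (median -3.01), 3 of 5 endothelial and 3 of 8 astrocyte markers. Higher in the BLA were 8 of 9 striatal and central amygdala markers (median 2.66) and 2 of 3 of BLA neurons (median 0.67). Of 5 oligodendrocyte precursor markers 2 were higher and 2 lower, of 8 neuron markers 2 and 2, and of 8 microglia markers 1 and 1. Their part in the difference was not tested. The BLA libraries were made from 10 ng of RNA and the hippocampal ones from 50 ng, so tissue and input cannot be told apart. Without BLA control naive replicate 5 the count was 9 of 31, without the libraries rich in Rn18s-rs5 it was 11, without those low in Rspo2 it was 16 and with the library number as a block it was 20, beside 38.8%, 40.5%, 40.4% and 43.7% of all genes.

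Other genes of the pathways, 19 of sterol handling and 16 of fatty acid metabolism, were tested in the same fits. For genotype in the hippocampus 3 of the 19 rose and 0 fell, with a median of 0.05. Of the 16, 4 rose and 1 fell, with a median of 0.16. Over all genes kept there 11% were called, 7.2% higher and 3.79% lower. In the BLA 0 of the 35 were called, beside 1.2% of all genes.

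Npc2, which binds cholesterol in the lysosome, rose by 0.83 ± 0.17 (edgeR adjusted p = 0.00592), from 51.2 to 57.9 CPM in controls to 60.1 to 164 CPM in APP/Tau libraries, with no overlap. Ch25h, the cholesterol 25-hydroxylase, an enzyme of activated microglia and macrophages, rose by 1.41 ± 0.29 (adjusted p = 0.00482) at levels of 0.139 to 0.556 CPM in controls and 0.417 to 1.68 CPM in APP/Tau libraries. Mylip, a ligase that marks lipoprotein receptors for degradation, rose by 0.22 ± 0.06 (adjusted p = 0.0349).

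Of the fatty acid list Mlxipl, the carbohydrate response factor ChREBP, rose by 0.95 ± 0.16 (edgeR adjusted p = 0.00131), with 2.12 to 5.14 CPM in APP/Tau libraries against 0.972 to 2.35 CPM in controls, and 8 of 9 APP/Tau libraries lay above every control. Me1, which supplies NADPH, rose by 0.18 ± 0.04 (adjusted p = 0.0151). Thrsp and Acacb, the carboxylase of the mitochondrial surface, rose by 0.27 ± 0.08 and 0.34 ± 0.10. Acss2, which makes cytosolic acetyl-CoA from acetate, fell by 0.16 ± 0.05 (adjusted p = 0.0329), from 39.0 to 45.6 CPM in controls to 32.1 to 42.7 CPM. Npc2 reached 164, 151 and 129 CPM in APP/Tau naive replicate 5 and trained replicates 1 and 3, the libraries with the highest summed markers of plaque-associated microglia.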

How the data were processed

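RNA of 39 libraries was sequenced after poly(A) selection. Reads were trimmed with Trimmomatic 0.39 and the genome build was mm39. Both are per the submitters' processing notes. The aligner, counter, annotation and strand setting were not given in the sources used here, so overlapping and antisense genes cannot be told apart. The deposited values are raw counts per gene, in 1 table per tissue. Among low counts above 0, between 54.3% and 69.0% per library were even, so a count may not stand for a single fragment. From these counts edgeR 4.0.16 (R 4.3.3) was fitted per tissue with 4 group means, and over both tissues with 8, after TMM scaling and filterByExpr (minimum count 10, minimum total 15), with a robust quasi-likelihood F test and Benjamini-Hochberg adjustment over all genes kept. A standard error is the log2 fold change divided by the square root of F, and a 95% interval spans 1.96 of them on each side. Scripts were tested on simulated data. Alternatives were DESeq2 1.42.0, limma-voom 3.58.1, other scaling and filters, only the groups compared, marker covariates, a replicate block and leaving out libraries; leaving out libraries rich in Rn18s-rs5 or low in Rspo2 was chosen after seeing the data. The members, gene lists and tests were chosen with earlier results of these data known. Members were described library by library where called, with a few more for their role; other pathway genes are named where called. By the rule set for promoters none would have been printed. Gene lengths for levels per kilobase are exon unions of GENCODE M21. No libraries were duplicates: the smallest chi-square per gene between libraries was 10.7.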

Additional observations from a re-analysis of the deposited data

Results flagged for a closer look

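Among 64 sets (the level of 1 gene or the mean of 1 branch, in 1 group of 4 to 6 libraries) examined for a library far from the others, 2 stood out. Chance gives about 1 in 20, so this is no more than chance gives. Stard4 in APP/Tau naive replicate 5 of the hippocampus was at 3.86 log2 CPM, with the nearest library of its group at 4.72. Fasn in APP/Tau trained replicate 4 of the BLA was at 7.79 log2 CPM, with the nearest at 8.07. That BLA library is also one of those low in Rspo2.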

How the results depend on the processing

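No member changed sign under an alternative in a comparison where it was called (28 alternatives for genotype in each tissue, 49 between tissues); Fasn, not called in the BLA, ran there from -0.05 to 0.04 in fits other than those that left out 1 library. For genotype in the hippocampus, averaged over training, the count of 5 members became 0 with the oligodendrocyte covariate and ran from 1 to 8 when 1 library was left out. In naive mice of the hippocampus DESeq2 gave 2 where edgeR gave 0; in trained mice DESeq2 gave 2, the replicate block 1, and leaving out 1 library 0 to 4. In the BLA the count of 1 became 8 with DESeq2, 2 with a filter at a mean of 1 CPM, and 0 without a filter, with the oligodendrocyte covariate, with the striatal covariate, with the replicate block and without the libraries low in Rspo2; leaving out 1 library gave 0 to 9. In naive mice of the BLA DESeq2 gave 2, and in trained mice leaving out 1 library gave 0 to 3. Between tissues the count of 15 became 9 without a filter, 20 with the library number as a block, and 9 to 16 when 1 library was left out. The main fits called 11% of all genes for genotype in the hippocampus, 1.2% in the BLA and 41.1% between tissues. Counts given here without a share over all genes show only how the calls moved with the processing. The causes were not tested. The replicate numbers of the titles did not pair the libraries: same-numbered libraries of different groups deviated together with a mean correlation of 0.07 in the hippocampus and -0.04 in the BLA. Library numbers shared across tissues gave a mean of 0.28 over 19 pairs, the lowest 0.0139, and 14 of the 19 matched best with their own number. All 19 carry the same genotype and training in both tissues, but the labels do not say that a number marks a mouse, so the fits over both tissues treat libraries as separate. The lowest level of any member in any library was 4.29 CPM, for Idi1 in the BLA. The part of depth in the precision was not tested.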
